A study of Mus musculus with 40 samples.

Results

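Th2-Th1 cells are T helper 2 (Th2) cells that were transferred to IL-12, which steers T cells to the T helper 1 (Th1) fate, and they are described here in 3 RNA libraries labelled Setdb1 KO and 2 labelled WT. These 5 libraries were chosen by their labels, out of 18 RNA libraries in a study of 40 samples that also profiled histone marks and open chromatin. All were CD4+ T cells from the spleen of C57BL/6 mice, Setdb1+/+ in the WT group and Setdb1-/- in the KO group, and the labels name neither the promoter of a Cre nor the exons removed. Naive cells of both genotypes were activated on plate-bound anti-CD3 (10 µg/mL) and anti-CD28 (1 µg/mL) in the presence of 50 ng/mL IL-4 and 10 µg/mL anti-IFN-gamma, and from day 3 they were kept without those antibodies in IL-2 (30 IU/mL). On day 6 they were washed and plated with IL-12 (10 ng/mL) and anti-IL-4 (10 µg/mL), and the labels give 2 culture days for this second step. The question was whether Th2 cells that lack SETDB1, an enzyme that places the silencing mark H3K9me3, respond to Th1 conditions differently from WT cells.

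Th1 cells fight intracellular microbes with interferon-gamma, whose gene Ifng is switched on by the transcription factors T-bet and STAT4. STAT4 is activated through the IL-12 receptor, whose second chain, encoded by Il12rb2, is normally shut down in Th2 cells, so that committed Th2 cells respond poorly to IL-12. Th2 cells carry the opposite programme, in which GATA3 and STAT6 drive the cytokine genes Il4, Il5 and Il13.

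Values are the authors' normalised read counts, and a log2 difference is taken on log2(value + 1) between the mean of libraries labelled KO and the mean of WT libraries, with its standard error from limma. Sequencing depth was 18.9 and 19.8 M reads in the WT libraries and 37.2 to 37.6 M in the libraries labelled KO, so that 1 read was worth 1.18 and 1.16 in WT and 0.489 to 0.501 in KO. At equal depth 17164 and 16260 genes had a read in WT and 18164 to 18674 in libraries labelled KO. The first principal component, with 68.1% of the variance of the 5 libraries, separated the genotypes. A gene was called where limma's p, adjusted over all 17254 genes tested, was under 0.05. Words such as rise, fall and went from compare WT with libraries labelled KO in the same state, and do not describe a change over time. Nothing in the labels states that replicates came from separate cultures or animals, so each p measures a spread between libraries only. That spread was estimated over all 18 RNA libraries, naive and Th2 cells included, and not from the 5 Th2-Th1 libraries alone. In bulk RNA, fewer cells of a type and less RNA per cell cannot be told apart.

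Setdb1, the gene whose loss names the groups, was 1611 and 1594 in WT and 7389, 5430 and 5914 in the libraries labelled KO. All 3 libraries labelled KO thus lay above both WT libraries, against the direction that the label implies (log2 1.95 ± 0.13, limma, adjusted p = 3.04e-09). Whole-gene values cannot show how much intact transcript was left, so groups are named by their labels throughout. Setdb1 was higher in libraries labelled KO in Th2 cells too, at 8070, 9044 and 8342 against 694, 933 and 841 in WT. Naive cells differed: the effect in Th2-Th1 cells exceeded the naive effect by 2.33 (limma interaction, adjusted p = 6.07e-08). That is more than 1.95, so in naive cells the mean on the log2 scale was lower in libraries labelled KO than in WT. Atf7ip, the partner protein that stabilises SETDB1, also rose in Th2-Th1 cells, from 529 and 432 to 2368, 2062 and 2125 (log2 2.19 ± 0.18, limma, adjusted p = 3.25e-08). The labelled cell type was checked on 8 markers of CD4 T cells, all of which had reads in every group. Their summed level was 87030 to 94200 in WT and 43660 to 52160 in libraries labelled KO.

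Of the 17254 genes tested, 3029 were called higher in libraries labelled KO (17.6%) and 2781 lower (16.1%), and for 2676 of these calls the change was 2-fold or more. The median log2 difference of all genes was 0.09. Counts of called genes in the lists below are read against these 17.6% and 16.1%. For 59.9% of the genes the 2 WT and the 3 KO libraries did not overlap, so a gap between groups is common in these data. The most abundant messages of WT cells were among those that fell. Akr1c18 took 0.987% of all reads in WT, the largest share of any gene, and 0.0167% in libraries labelled KO, where it ranked 1416. Il13 went from rank 3 to rank 52 and Il5 from rank 4 to rank 31.

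**Figure D1:**
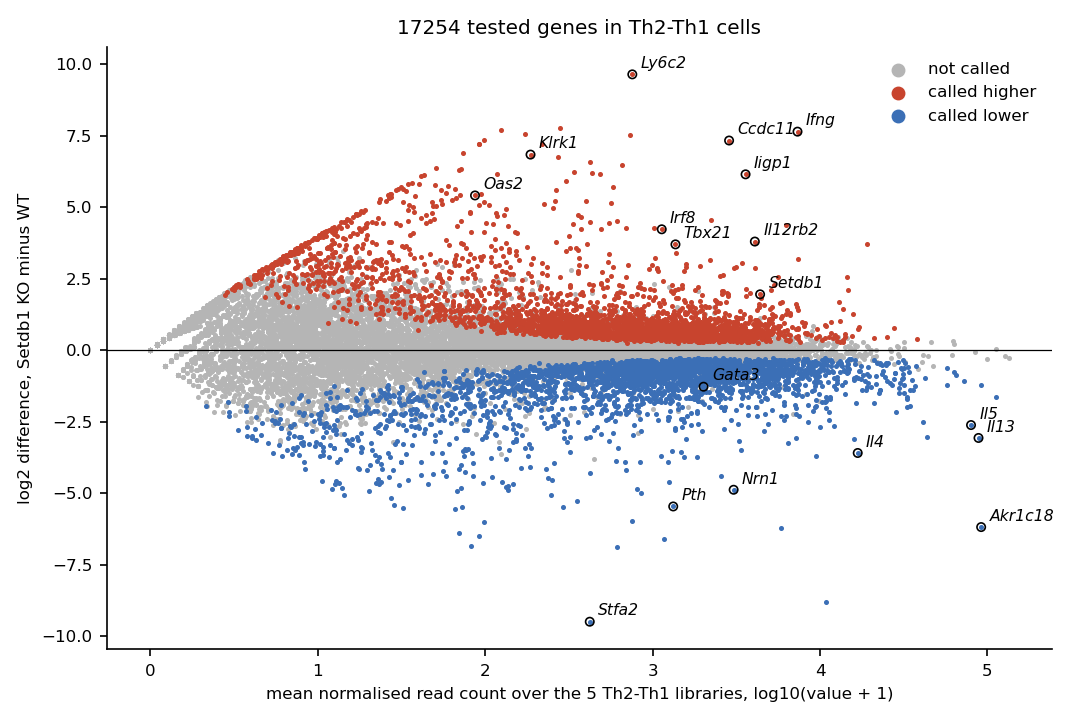
Each point is 1 of the 17254 genes tested. The x axis is the mean normalised read count over the 5 Th2-Th1 libraries as log10(value + 1), and the y axis is the log2 difference, Setdb1 KO minus WT. Genes called higher (3029) are red, genes called lower (2781) blue and the others grey. Ifng at 7.64 and Ly6c2 at 9.64 lie at the upper edge, and Akr1c18 at -6.19 and Stfa2 at -9.50 at the lower edge.

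Of 19 genes of IL-12, IL-18 and interferon-gamma signalling 10 were called higher and 2 lower, with a median log2 difference of 0.57. Il12rb2 was 415 and 518 in WT and 5560, 6427 and 7488 in libraries labelled KO. All 3 KO libraries lay far above both WT libraries (log2 3.79 ± 0.48, limma, adjusted p = 5.65e-06). Il12rb1, the other chain of the receptor, was 2869 and 2663 in WT and 6286, 4618 and 4643 in libraries labelled KO. That rise was smaller (log2 0.89 ± 0.25, limma, adjusted p = 0.0098) and was not called without WT replicate 2 (adjusted p = 0.0791). Stat4 was 757 and 494 in WT and 1369, 1256 and 1143 in libraries labelled KO (log2 1.03 ± 0.15, limma, adjusted p = 3.13e-05), with no overlap between groups. Ifngr1, the ligand-binding chain of the interferon-gamma receptor, rose by 2.08 on the log2 scale, whereas Ifngr2, its signalling partner, fell by 0.77. Socs1, a feedback inhibitor of this pathway, rose by 1.35 on the log2 scale, and Socs3, an inhibitor of the same family, fell by 0.70. Irf8, an interferon regulatory factor counted in this list, rose from 83.9 and 111.5 to 1824, 1742 and 1910 (log2 4.22 ± 0.26, limma, adjusted p = 1.1e-09). Jak2 and Tyk2, the kinases bound to the IL-12 receptor, were not called, at -0.11 and 0.19.

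Among 14 Th1 transcription factors 9 were called higher and 1 lower. Tbx21, which encodes T-bet, was 138 and 199 in WT and 1941, 2086 and 2485 in libraries labelled KO. The groups were far apart and each was narrow (log2 3.70 ± 0.82, limma, adjusted p = 0.0016). Hlx, a homeobox factor that acts with T-bet, was 21.3 and 24.4 in WT and 137, 214 and 262 in libraries labelled KO (log2 3.06 ± 0.70, limma, adjusted p = 0.0020). Irf1 rose from 1628 and 1783 to 8151, 7185 and 6875 (log2 2.12 ± 0.12, limma, adjusted p = 4.96e-10). Eomes, a T-box factor related to T-bet, stayed near the floor at 5.91 and 2.32 in WT and 12.7, 18.5 and 42.9 in libraries labelled KO. Its call (log2 2.25 ± 0.74, limma, adjusted p = 0.0249) was lost without KO replicate 3 (adjusted p = 0.109) and without WT replicate 2 (0.212). Without WT replicate 2 the list had 5 called higher instead of 9, and Tbx21, Hlx and Irf1 were still called.

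Effector genes of Th1 cells moved apart from each other, with 11 of 27 called higher, 5 called lower and a median log2 difference of 1.19. Il10 and Csf2, both called lower, are counted here and also in the list of Th2 cytokines and products. The call of Csf2 was lost when any 1 of the 5 libraries was left out. Ifng was 43.7 and 70.9 in WT and 6251, 14972 and 15356 in libraries labelled KO. KO replicate 1 held less than the other two, and all 3 lay far above WT (log2 7.64 ± 0.77, limma, adjusted p = 4.08e-07). Lta, which encodes lymphotoxin alpha, rose from 300 and 458 to 2123, 2745 and 3976 (log2 2.94 ± 0.28, limma, adjusted p = 1.98e-07), and Ltb, its partner, rose by 2.31. Fasl, a ligand that triggers cell death, rose by 1.87 on the log2 scale. Tnf, in contrast, was 1380 and 1523 in WT and 1333, 1182 and 1512 in libraries labelled KO, and the groups overlapped (log2 -0.12 ± 0.24, limma, adjusted p = 0.774). Tnfsf11, which encodes the cytokine RANKL, fell from 14325 and 16129 to 2202, 2084 and 1237 (log2 -3.09 ± 0.26, limma, adjusted p = 4.8e-08). Il2 was 116 and 234 in WT and 15.2, 10.0 and 17.7 in libraries labelled KO, a fall (log2 -3.47 ± 1.04, limma, adjusted p = 0.0138) that was not called without WT replicate 2 (adjusted p = 0.131). Without that library 1 effector gene was called lower instead of 5. The chemokine genes Ccl3 (0.24), Ccl4 (1.12) and Ccl5 (1.45) and the Th1 homing receptor gene Cxcr3 (1.70) did not pass the test. Ccl4 depended on the method: it was 2329 and 2834 in WT and 5468, 6072 and 5206 in libraries labelled KO, with no overlap, and was called with edgeR (adjusted p = 5.18e-06), DESeq2 (4.82e-12), TMM scaling (0.0465), a pseudocount of 10 (9.18e-04), a filter at 50 (0.0404), the 5 libraries alone (1.19e-04) and the Th2 and Th2-Th1 libraries alone (7.49e-04).

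**Figure D2:**
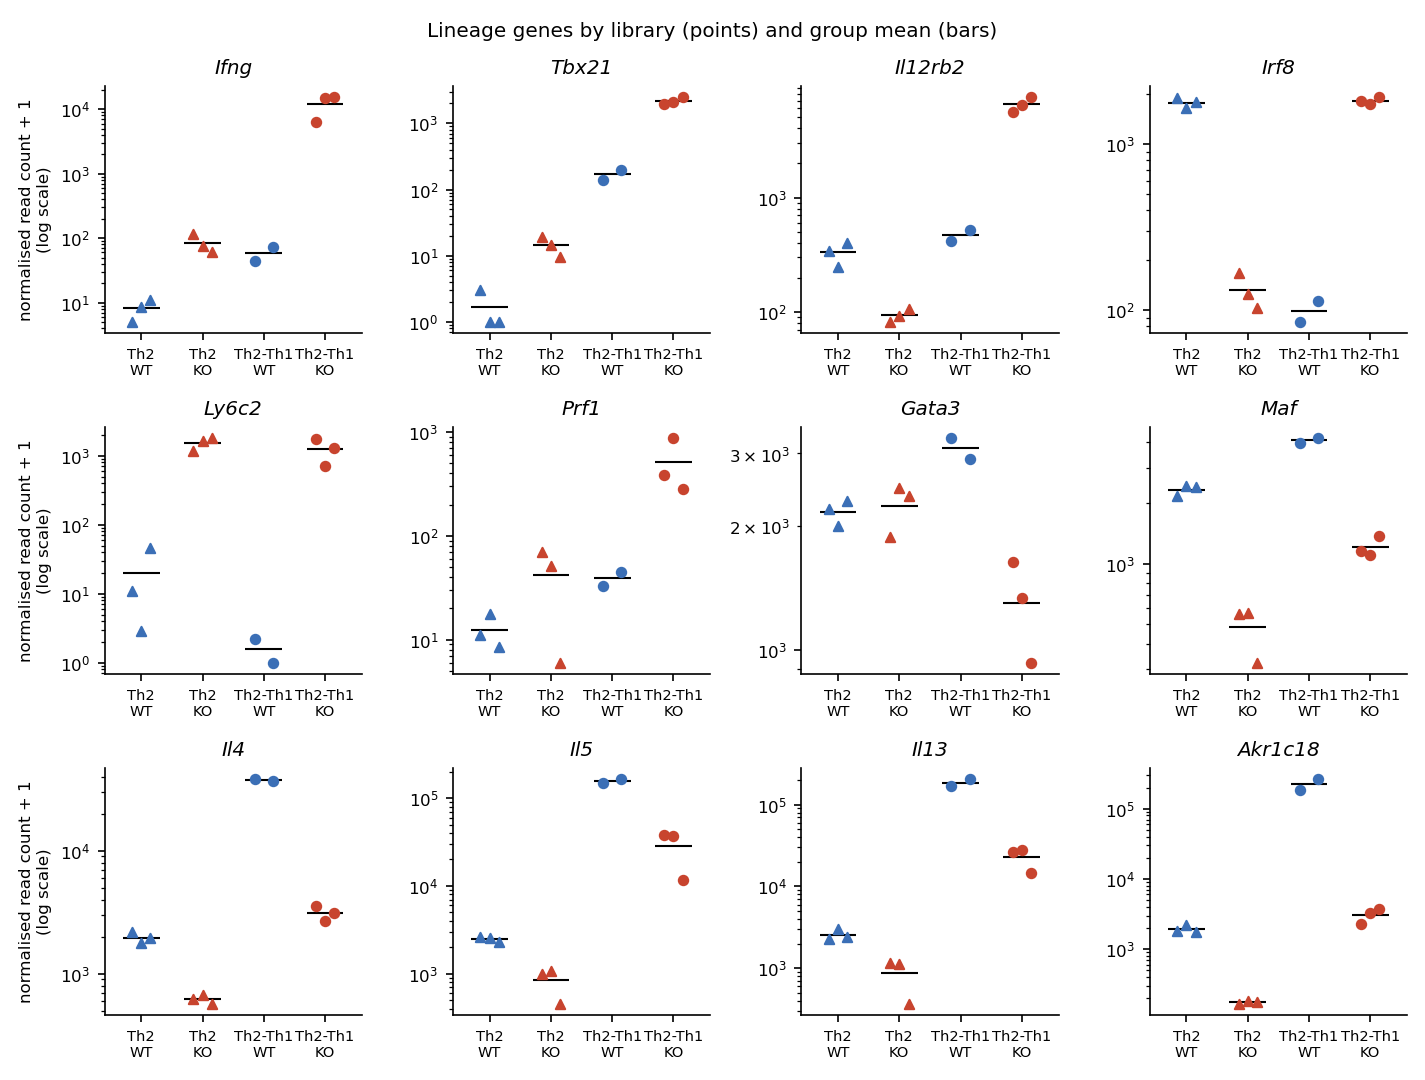
Normalised read count plus 1 on a log axis for 12 lineage genes, with 1 point per library and a bar at the group mean. Triangles are Th2 libraries (3 WT, 3 KO) and circles Th2-Th1 libraries (2 WT, 3 KO). The circles of WT and KO are separate in each panel shown, with KO higher for Ifng, Tbx21, Il12rb2, Irf8, Ly6c2 and Prf1 and lower for the other genes.

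The promoters of Ifng, its regulator Tbx21, the receptor gene Il12rb2 and Irf8 are printed below from RefSeq's GRCm38.p6 annotation, the reference of the mm10 build, from 250 bases before the transcription start to 50 after it. They were searched on both strands for the STAT dimer motif TTCNNNGAA, the interferon response core GAAANNGAA, the T-box motif TCACACC and the GATA motif AGATAA, and capitals mark every match. Ifng lies at chr10:118440796-118441095 on the plus strand, Il12rb2 at chr6:67376139-67376438 on the minus strand, Irf8 at chr8:120736108-120736407 on the plus strand, and Tbx21 at chr11:97115282-97115581 on the minus strand.
Ifng: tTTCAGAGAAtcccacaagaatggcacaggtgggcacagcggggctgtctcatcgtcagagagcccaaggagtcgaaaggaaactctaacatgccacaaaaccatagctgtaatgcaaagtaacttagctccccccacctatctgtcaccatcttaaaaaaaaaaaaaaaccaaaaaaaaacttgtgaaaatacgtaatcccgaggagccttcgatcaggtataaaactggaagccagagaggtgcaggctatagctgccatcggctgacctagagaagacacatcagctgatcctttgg
Il12rb2: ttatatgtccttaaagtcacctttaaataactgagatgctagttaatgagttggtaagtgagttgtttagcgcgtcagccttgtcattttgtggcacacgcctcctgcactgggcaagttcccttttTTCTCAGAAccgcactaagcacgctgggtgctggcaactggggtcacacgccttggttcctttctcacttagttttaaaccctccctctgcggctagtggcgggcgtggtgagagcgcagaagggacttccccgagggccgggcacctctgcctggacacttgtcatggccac
Irf8: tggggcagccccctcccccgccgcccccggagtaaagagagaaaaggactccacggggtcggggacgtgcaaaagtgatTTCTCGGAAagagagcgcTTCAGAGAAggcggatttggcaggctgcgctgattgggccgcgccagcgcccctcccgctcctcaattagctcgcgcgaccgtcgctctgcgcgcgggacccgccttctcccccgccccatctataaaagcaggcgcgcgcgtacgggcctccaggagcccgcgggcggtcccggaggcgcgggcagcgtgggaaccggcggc
Tbx21: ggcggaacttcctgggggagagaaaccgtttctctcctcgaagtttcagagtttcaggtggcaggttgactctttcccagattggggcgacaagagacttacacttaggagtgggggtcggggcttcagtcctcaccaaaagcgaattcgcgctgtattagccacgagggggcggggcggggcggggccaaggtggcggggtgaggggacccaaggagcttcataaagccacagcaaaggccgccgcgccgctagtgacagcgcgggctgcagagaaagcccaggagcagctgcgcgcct
The window of Ifng held 1 match to the STAT motif, that of Il12rb2 also 1 and that of Irf8 2, while that of Tbx21 held no match to any of the 4 motifs. Of all 32851 promoter windows in that source, 8.3% held the STAT motif, and it was in 6 of the 17 windows found for the IL-12, IL-18 and interferon-gamma signalling list (35.3%). A match is a run of letters and does not show that a factor bound. Irf8 is given for its more upstream start, and the window of its other start held none of the 4 motifs.

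Th2 genes differed between lists. Of 20 Th2 cytokine and product genes 11 were called lower (55%) and 1 higher, with a median log2 difference of -2.02. Among 14 Th2 receptor genes 1 was called lower (7.14%) and 2 higher (14.3%), against 16.1% and 17.6% of all genes tested. The median of the receptor genes was -0.01 and became 0.07 with TMM scaling. edgeR called 4 of the receptor genes lower and 5 higher, and limma with a pseudocount of 10 called 4 lower and 4 higher. Il4 was 38062 and 36607 in WT and 3516, 2669 and 3117 in libraries labelled KO. The spread within each group was small beside the gap (log2 -3.60 ± 0.30, limma, adjusted p = 3.88e-08). Il13 was 168498 and 204615 in WT and 26380, 27579 and 14766 in libraries labelled KO (log2 -3.07 ± 0.42, limma, adjusted p = 1.4e-05). Il5 was 148123 and 164125 in WT and 37695, 37102 and 11627 in libraries labelled KO, so that KO replicate 3 stood below its group (log2 -2.62 ± 0.56, limma, adjusted p = 0.00109). Even in libraries labelled KO these genes were not silent, as their ranks by reads show.

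Other genes called in that list included cytokines and enzymes. Il10, an inhibitory cytokine, went from 49380 and 56691 to 12848, 9875 and 12496 (log2 -2.18 ± 0.57, limma, adjusted p = 0.00565), which was not called without WT replicate 2 (adjusted p = 0.0552). Il9 went from 207 and 418 to 6.85, 23.5 and 5.42 (log2 -4.78 ± 1.14, limma, adjusted p = 0.00278). Il3, a growth factor for mast cells and basophils, fell by 2.31 on the log2 scale. Akr1c18, an enzyme that breaks down progesterone, was 186140 and 262765 in WT and 2305, 3263 and 3700 in libraries labelled KO (log2 -6.19 ± 0.79, limma, adjusted p = 7.13e-06). Cyp11a1, the enzyme that begins steroid synthesis, was 11254 and 12727 in WT and 2502, 1960 and 2180 in libraries labelled KO. Its fall (log2 -2.44 ± 0.70, limma, adjusted p = 0.0102) was not called without WT replicate 1 (adjusted p = 0.0501) or without WT replicate 2 (0.0752). Il6 was the exception in this list and rose from 298 and 349 to 2778, 3027 and 1262 (log2 2.77 ± 0.71, limma, adjusted p = 0.0048). Without WT replicate 2 the list had 7 called lower instead of 11.

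Gata3, the defining Th2 factor, was 3266 and 2908 in WT and 1634, 1338 and 931 in libraries labelled KO. The groups did not overlap, and the fall was smaller than that of the cytokine genes (log2 -1.28 ± 0.23, limma, adjusted p = 2.13e-04). Maf, a factor that acts on the Il4 promoter, was 3992 and 4195 in WT and 1151, 1097 and 1374 in libraries labelled KO (log2 -1.77 ± 0.28, limma, adjusted p = 6.57e-05). Batf, an AP-1 family factor, fell from 12532 and 13638 to 2961, 3440 and 3157 (log2 -2.04 ± 0.16, limma, adjusted p = 2.29e-08). Stat6, which relays the IL-4 signal, was 2923 and 2780 in WT and 3591, 3196 and 3083 in libraries labelled KO and did not pass the test (log2 0.20 ± 0.11, limma, adjusted p = 0.188). The receptor gene Il4ra was not called either (0.23 ± 0.11, adjusted p = 0.12), though TMM scaling (0.31, adjusted p = 0.0327) and edgeR (0.32, 0.0311) called it higher. Notch1 and Notch2, which are known to favour Gata3 and Il4, rose by 0.83 and 0.90 on the log2 scale, and Rora rose by 0.97, a call lost without WT replicate 2 (adjusted p = 0.0568). Of 17 Th2 transcription factors 5 were called higher and 4 lower, and without WT replicate 2 the counts were 2 and 2.

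The promoters of the Th2 cytokine genes, which are neighbours on chromosome 11, are shown with the same 4 motifs in capitals. Il4 is given for its more upstream start, and the window of its other start held 1 interferon response core and 1 STAT motif.
Il4 (chr11:53618616-53618915, minus strand): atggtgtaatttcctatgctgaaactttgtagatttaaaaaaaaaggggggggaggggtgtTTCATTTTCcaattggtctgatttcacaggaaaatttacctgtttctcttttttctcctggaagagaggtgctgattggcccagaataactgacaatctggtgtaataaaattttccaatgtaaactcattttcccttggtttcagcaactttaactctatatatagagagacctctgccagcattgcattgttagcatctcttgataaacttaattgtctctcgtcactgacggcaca
Il13 (chr11:53634653-53634952, minus strand): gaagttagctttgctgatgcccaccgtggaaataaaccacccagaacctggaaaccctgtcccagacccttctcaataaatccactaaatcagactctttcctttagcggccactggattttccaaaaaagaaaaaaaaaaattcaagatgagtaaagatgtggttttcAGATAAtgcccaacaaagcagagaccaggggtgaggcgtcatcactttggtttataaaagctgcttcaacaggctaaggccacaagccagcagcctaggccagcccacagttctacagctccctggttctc
Il5 (chr11:53720544-53720843, plus strand): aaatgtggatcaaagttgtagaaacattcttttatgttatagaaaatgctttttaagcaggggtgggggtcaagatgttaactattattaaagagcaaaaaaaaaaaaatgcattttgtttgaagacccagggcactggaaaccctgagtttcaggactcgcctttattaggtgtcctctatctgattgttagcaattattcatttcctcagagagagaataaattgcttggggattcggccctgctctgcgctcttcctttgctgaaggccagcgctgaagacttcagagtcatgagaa
Il4 held 1 match to the interferon response core on the reverse strand, Il13 held 1 GATA motif and Il5 held none of the 4. Only the exact letters AGATAA counted as the GATA motif, so the lack of a match does not show that a window lacks a GATA site. The GATA motif was in 11.2% of all promoter windows, in 8.37% of those of genes tested and in 3 of 17 windows of the cytokine and product list (17.6%).

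All 21 tested members of the list of GTPases and chemokines induced by interferon-gamma were called higher, with a median log2 difference of 2.64. These proteins attack microbes inside the cell or call in T cells. Iigp1, an immunity-related GTPase, was 156 and 41.8 in WT and 5520, 4655 and 7591 in libraries labelled KO. Although the WT libraries differed from each other, the lowest KO library lay far above both (log2 6.14 ± 0.61, limma, adjusted p = 3.26e-07). Gbp5, a guanylate-binding protein, was 162 and 148 in WT and 3625, 3492 and 3769 in libraries labelled KO (log2 4.54 ± 0.17, limma, adjusted p = 2.05e-12). Gbp2 was 1274 and 1200 in WT and 12751, 9912 and 11651 in libraries labelled KO (log2 3.20 ± 0.27, limma, adjusted p = 3.94e-08). For both the spread within a group was a small part of the gap.

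The chemokine genes of that list were low. Cxcl9 had 3 reads in the WT libraries together and values of 49.9, 55.6 and 73.4 in libraries labelled KO, a ratio of 33.9 with an exact 95% interval from 11.5 to 165, which covers counting error only. Cxcl11 had no read in WT and was 49.4, 57.1 and 61.1 in libraries labelled KO, at least 15.9-fold higher when each WT library is set to 3 reads, but DESeq2 did not call it (adjusted p = 0.0632). Cxcl10 was 17.7 and 3.49 in WT and 92.9, 64.1 and 86.7 in libraries labelled KO, and its call was lost without KO replicate 1 (limma, adjusted p = 0.0537) and without WT replicate 2 (adjusted p = 0.249). Several Gbp and Tgtp genes are near copies of each other, so the authors' counting could have split their reads, and values of single paralogs are uncertain.

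**Figure D3:**
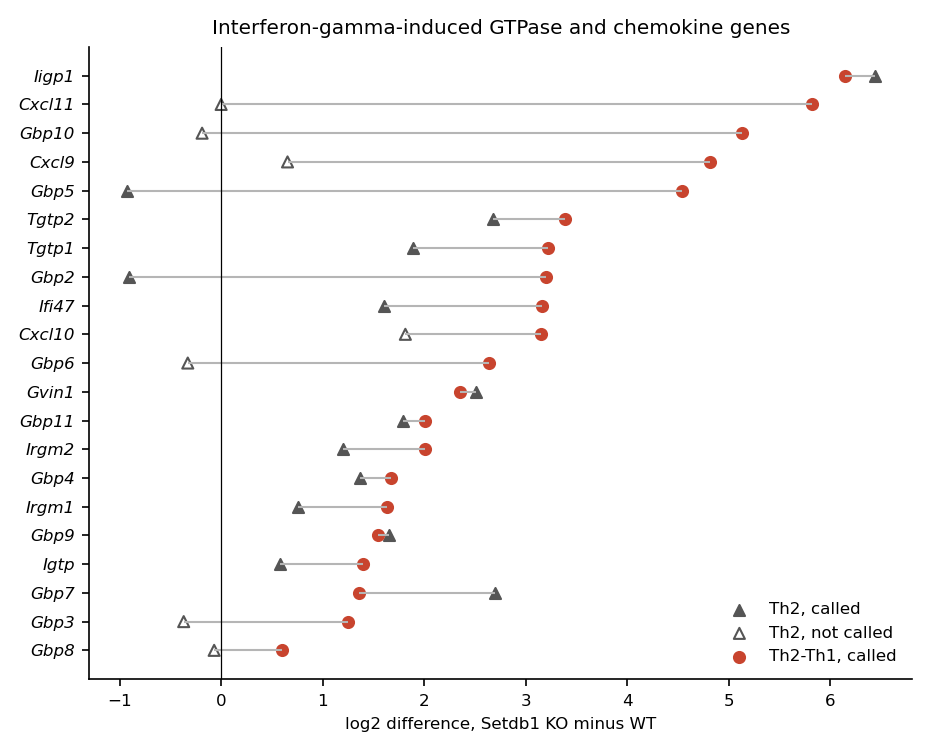
Log2 difference, Setdb1 KO minus WT, for the 21 interferon-gamma-induced genes. Circles are Th2-Th1 cells, where all 21 were called, and triangles are Th2 cells before the move, filled where called. Gbp5 and Gbp2 lie left of 0 in Th2 cells and at 4.54 and 3.20 in Th2-Th1 cells, while Iigp1 is high in both.

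Of the 21 genes 12 had a promoter window in the RefSeq table, and 11 of the 12 held the interferon response core GAAANNGAA (91.7%), against 8.89% of the windows of all genes tested and 14.2% of those of genes called higher by at least 2-fold. Ifi47 was the one without it. The STAT motif was in 6 of the 12 (50.0%) and the GATA motif in 5 (41.7%), against 8.61% and 8.37% of the windows of all genes tested. Examples are printed for a chemokine, a guanylate-binding protein and a T-cell-specific GTPase, with all 4 motifs in capitals.
Cxcl9 (chr5:92328030-92328329, minus strand): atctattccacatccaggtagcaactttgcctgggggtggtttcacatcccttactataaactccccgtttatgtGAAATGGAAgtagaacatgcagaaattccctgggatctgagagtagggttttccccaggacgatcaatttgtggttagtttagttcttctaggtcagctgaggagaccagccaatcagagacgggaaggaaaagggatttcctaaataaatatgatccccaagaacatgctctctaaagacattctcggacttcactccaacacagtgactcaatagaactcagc
Gbp5 (chr3:142496684-142496983, plus strand): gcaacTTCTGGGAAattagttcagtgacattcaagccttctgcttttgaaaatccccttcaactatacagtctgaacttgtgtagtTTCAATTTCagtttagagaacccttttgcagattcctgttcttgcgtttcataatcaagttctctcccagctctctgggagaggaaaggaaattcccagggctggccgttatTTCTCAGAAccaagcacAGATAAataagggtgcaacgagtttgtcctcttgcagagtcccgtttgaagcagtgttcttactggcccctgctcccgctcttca
Tgtp2 (chr11:49064163-49064462, minus strand): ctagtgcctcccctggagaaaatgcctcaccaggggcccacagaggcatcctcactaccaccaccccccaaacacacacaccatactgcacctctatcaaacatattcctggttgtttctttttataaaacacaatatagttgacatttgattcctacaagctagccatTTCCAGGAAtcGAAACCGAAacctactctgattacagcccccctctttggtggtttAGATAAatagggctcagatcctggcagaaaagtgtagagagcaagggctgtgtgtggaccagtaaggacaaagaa
Cxcl9 held 1 interferon response core and no STAT motif. Gbp5 held 1 core, 2 STAT motifs and 1 GATA motif, and Tgtp2 held 1 core, 1 STAT motif and 1 GATA motif.

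Genes known chiefly as targets of type I interferons, the antiviral interferons, were also higher: 26 of 33 were called higher and none lower, with a median log2 difference of 1.94. Ifit3, an antiviral protein gene, was 5.91 and 6.97 in WT and 219, 170 and 183 in libraries labelled KO (log2 4.68 ± 0.59, limma, adjusted p = 6.02e-06). Oas2, an enzyme whose product starts RNA decay, was 9.45 and 0 in WT and 192, 116 and 113 in libraries labelled KO (log2 5.41 ± 0.76, limma, adjusted p = 1.89e-05). In both genes the KO libraries were close together and all above WT. Stat2, which carries the type I signal, rose by 1.93 on the log2 scale. Irf9, its partner, was not called by limma (0.34, adjusted p = 0.121) but was called higher with TMM scaling (0.43, adjusted p = 0.0441), edgeR (0.44, 0.0416), the Th2 and Th2-Th1 libraries alone (0.34, 0.0482) and the replicate block (0.46, 0.0163). Without WT replicate 2 the list had 15 called higher and a median of 1.40, and Isg15 (limma, adjusted p = 0.246), Irf7 (0.0546) and Ddx60 (0.0882) were among the calls lost. WT replicate 1 lay above WT replicate 2 for Isg15 (514 and 217), Irf7 (647 and 330) and Ddx60 (156 and 39.5).

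The interferon ligands themselves gave no call among 3 tested genes of 17 in the table. Ifnb1 was 23.6 and 24.4 in WT and 6.85, 14.0 and 5.91 in libraries labelled KO, with every KO library below WT (log2 -1.42 ± 0.75, limma, adjusted p = 0.163). Among 23 genes of nucleic acid sensing 12 were called higher and 2 lower. Ifi204, a DNA sensor, rose from 106 and 65.1 to 1998, 1406 and 1498 (log2 4.26 ± 0.98, limma, adjusted p = 0.0022). Tmem173, which encodes the adaptor STING, rose by 1.65 and Zbp1, a sensor of left-handed nucleic acids, by 1.73 on the log2 scale. Of 26 genes of MHC and antigen processing 13 were called higher and 1 lower, among them the class I regulator Nlrc5 (1.84), the peptide transporter gene Tap1 (1.5), Tapbp (1.51) and the immunoproteasome subunit gene Psmb10 (1.33).

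In the list of cytotoxic and NK receptor genes 12 of 24 were called higher and 2 lower, with a median log2 difference of 2.21. Prf1, which encodes perforin, was 31.9 and 44.1 in WT and 385, 869 and 281 in libraries labelled KO. KO replicate 2 was the highest, and all 3 exceeded WT (log2 3.56 ± 0.70, limma, adjusted p = 5.49e-04). Gzmb, a granule protease, was already high in WT at 3411 and 3929 and reached 19321, 24448 and 21156 in libraries labelled KO (log2 2.56 ± 0.85, limma, adjusted p = 0.025). Leaving out any of 4 libraries ended the call: WT replicate 1 (adjusted p = 0.118), WT replicate 2 (0.098), KO replicate 2 (0.0599) or KO replicate 3 (0.0513). Klrk1, which encodes the activating receptor NKG2D, was 5.91 and 0 in WT and 373, 340 and 211 in libraries labelled KO (log2 6.84 ± 1.26, limma, adjusted p = 3.08e-04). Klrd1, which encodes CD94, had no read in WT and was 20.5, 41.6 and 21.2 in libraries labelled KO, at least 7.9-fold higher. The list held 7 genes called higher without WT replicate 2.

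Markers of CD8 T cells and NK cells were looked up beside these rises. Cd8a was at 0 in 4 of the 5 libraries and at 2.00 in KO replicate 2, and Cd8b1 fell from 181 and 201 to 44.0, 40.6 and 42.4 (log2 -2.15 ± 0.24, limma, adjusted p = 1.5e-06). The NK genes Ncr1 and Klra1 were at 0 in every library, while Klrb1c, Klra8 and Klra9 had no read in WT and reached at most 1.47 in a library labelled KO. The summed level of 10 markers of NK and innate lymphoid cells was 729 to 857 in WT and 249 to 488 in libraries labelled KO. Most of that sum in WT was Il1rl1, which is also in the Th2 receptor list. Before scaling for depth Il1rl1 had 594 and 710 reads in WT and 856, 480 and 285 in libraries labelled KO. Its log2 difference of -1.65 was not called over all 18 libraries but was with the Th2 and Th2-Th1 libraries alone (limma, adjusted p = 0.00118). Of the 5 markers tested Eomes and Kit were called higher and Klra4 lower. The gamma-delta T cell gene Tcrg-C2 rose from 0 and 1.16 to 51.9, 85.7 and 48.3 (log2 5.37, limma, adjusted p = 1.45e-06), while the summed level of the 5 measured markers of gamma-delta and NKT cells was 142 to 179 in WT and 158 to 231 in libraries labelled KO. The part of such cells in these results was not tested beyond these values.

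The largest rises among all genes with a mean of at least 50 were led by Ly6c2, a surface protein of memory and effector T cells and of monocytes. It had 1 read in WT and values of 1761, 705 and 1315 in libraries labelled KO, a ratio of 2160 with an exact 95% interval from 387 to 85300, which covers counting error only (limma, log2 9.64 ± 0.78). Ly6c1 was 8.27 and 3.49 in WT and 1542, 800 and 1311 in libraries labelled KO, and Ly6g, better known from neutrophils, 14.2 and 8.13 against 1477, 909 and 862. All 3 genes are similar neighbours of one family, and reads may have been shared among them. The neutrophil genes S100a8, S100a9, Elane and Retnlg were at 0 in all 5 libraries. The summed level of 13 measured markers of macrophages, monocytes and dendritic cells was 79 to 156 in WT and 173 to 204 in libraries labelled KO. None of the 10 tested was called, their median log2 difference was 0.74, and their part in the rise of Ly6c2 was not tested. Ccdc11, a cilium gene, rose from 24.8 and 31.4 to 3361, 5518 and 5388 (log2 7.33 ± 0.96, limma, adjusted p = 9.77e-06). Mylk, the myosin light chain kinase of smooth muscle, had no read in WT and was 204, 232 and 179 in libraries labelled KO, at least 58.4-fold higher, and Myh11, a smooth muscle myosin, rose from 18.9 and 1.16 to 245, 551 and 870 (log2 6.23 ± 1.18, limma, adjusted p = 3.91e-04). The summed level of 9 markers of stromal and endothelial cells was 394 to 584 in WT and 397 to 451 in libraries labelled KO.

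The largest falls among genes with a mean of at least 50 were led by Stfa2, a cystatin that inhibits proteases. It was 893 and 1211 in WT and 0.489, 1.00 and 0 in libraries labelled KO. That made 1798 reads against 3, a level 2130-fold lower with an exact 95% interval from 728 to 10300 for counting error, though reads may be shared with its near copy Stfa3. Pth, which encodes parathyroid hormone, was 3359 and 3046 in WT and 132, 54.6 and 50.3 in libraries labelled KO (log2 -5.47 ± 0.54, limma, adjusted p = 3.69e-07). Grp, a neuropeptide gene, was 800 and 895 in WT and 20.1, 30.1 and 14.8 in libraries labelled KO (log2 -5.28 ± 0.81, limma, adjusted p = 5e-05). In all 3 genes the WT libraries were close and the KO libraries lay far below. Nrn1, which encodes neuritin, went from 5312 and 9222 to 261, 237 and 213 (log2 -4.88 ± 0.31, limma, adjusted p = 1.19e-09), and the collagen genes Col4a1 and Col4a2 fell as well (log2 -5.50 and -6.52).

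Of 20 costimulatory and inhibitory receptor genes 10 were called lower and 3 higher, with a median log2 difference of -0.61. Ctla4, an inhibitory receptor, fell from 51252 and 52121 to 20294, 20582 and 14729 (log2 -1.5 ± 0.23, limma, adjusted p = 4.42e-05). Cd200r1 fell by 2.35, Cd27 by 2.32 and Pdcd1, which encodes PD-1, by 1.45 on the log2 scale, whereas Icos rose by 1.27. Cd4 was 20816 and 16818 in WT and 9537, 9173 and 6976 in libraries labelled KO (log2 -1.14 ± 0.14, limma, adjusted p = 4.59e-06), and Cd3g fell by 1.32, while Cd3e was 940 and 958 against 812, 942 and 925 (log2 -0.09, adjusted p = 0.825). Of 13 genes of follicular helper T cells 7 were called lower and 2 higher, including Slamf6 (-2.86) and Pou2af1 (-2.98) on the lower side and Tox (3.40) on the higher. Ccr7, a chemokine receptor that guides naive and central memory cells into lymph nodes, rose from 222 and 230 to 1795, 1594 and 1468 (log2 2.83 ± 0.13, limma, adjusted p = 6.71e-11). Il7r, also typical of resting cells, fell by 1.56. Foxp3, the factor of regulatory T cells, was near the floor at 0 and 11.6 in WT and 1.47, 2.51 and 2.96 in libraries labelled KO, and 6 of 15 regulatory T cell genes were called lower and 3 higher.

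**Figure D4:**
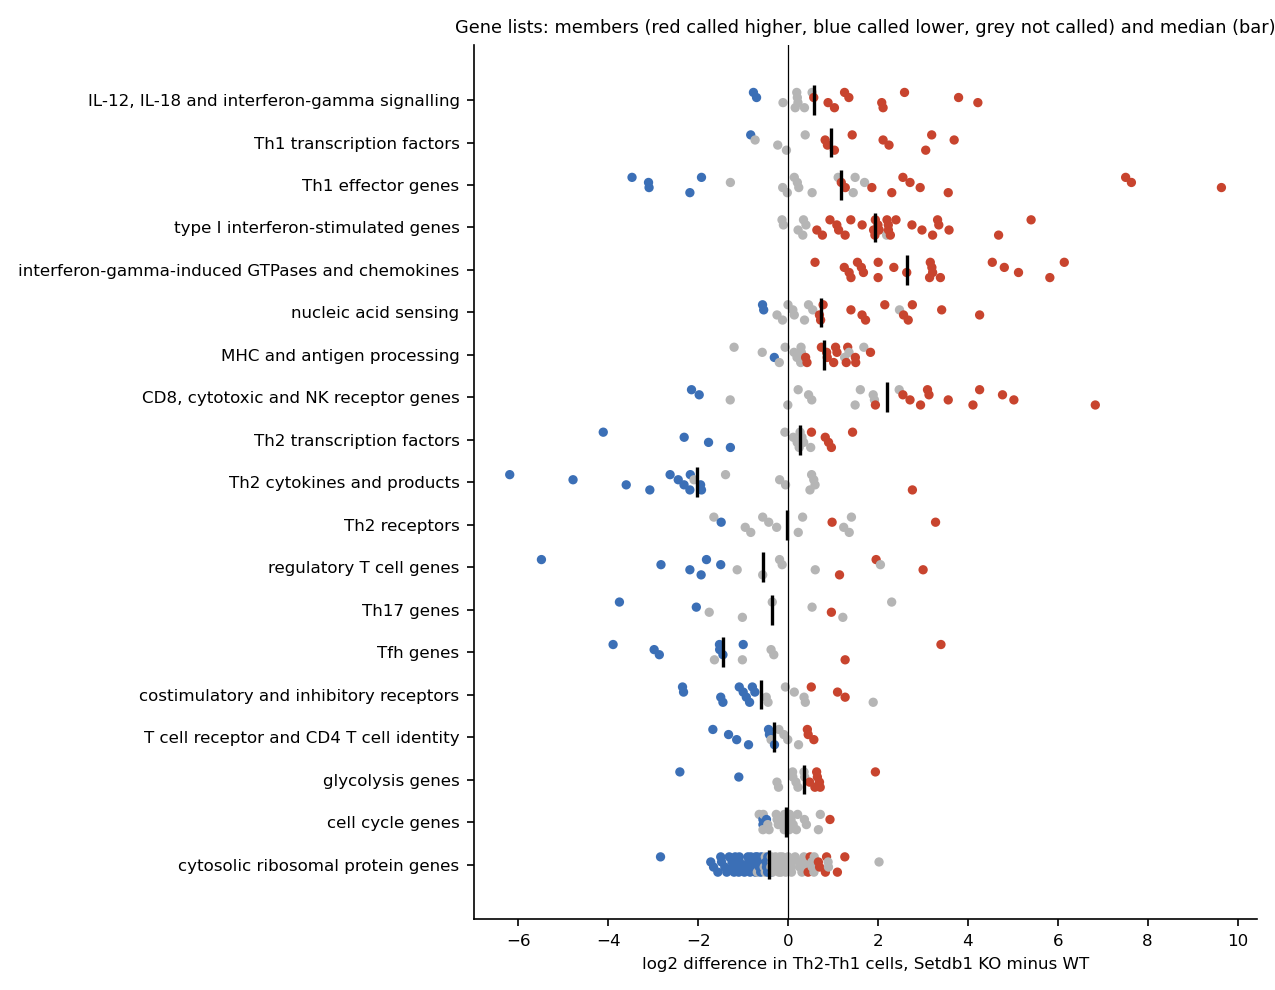
Log2 difference, Setdb1 KO minus WT, for the tested members of 19 gene lists, with 1 point per gene (red called higher, blue called lower, grey not called) and a black bar at the list's median. The interferon-gamma-induced list lies wholly on the right with a median of 2.64, Th2 cytokines and products lie mostly on the left with a median of -2.02, and cell cycle genes sit around 0.

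Metabolic and growth genes differed unevenly. Of 17 glycolysis genes 7 were called higher and 2 lower. Eno1, an enolase, rose from 1000 and 911 to 3943, 3465 and 3635 (log2 1.94 ± 0.12, limma, adjusted p = 1.11e-09), with no overlap between groups, but Slc2a3, a glucose transporter gene, fell by 2.41 on the log2 scale, and without WT replicate 1 the count called higher was 4. Of 30 cell cycle genes 1 was called higher and 3 lower, with a median of -0.04 that became 0.04 with TMM scaling and 0.06 with edgeR. None of the 30 was called lower without KO replicate 1 or without WT replicate 2. Among 19 genes of cholesterol synthesis 3 were called lower (15.8%), including Hsd17b7 (-2.10), and none higher. That share is near the 16.1% of all genes tested that were called lower. Of 90 genes of cytosolic ribosomal proteins 43 were called lower and 8 higher, with a median of -0.42, and 28 were called lower without WT replicate 2. Their share of all reads was 2.96% and 3.14% in WT and 2.11% to 2.30% in libraries labelled KO. Rpl38 fell by 2.84, but many of these genes have processed pseudogene copies that share their reads, so single values are uncertain.

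Heterochromatin genes and genes that are normally silent in T cells were examined because H3K9me3 marks silent chromatin. Among 27 genes of H3K9 methylation and heterochromatin 10 were called higher and 5 lower, with 2 of the 10 calls from separate Atf7ip identifiers. Trim28, the corepressor that recruits SETDB1, rose by 0.65, while Dnmt3a, a DNA methyltransferase, fell by 1.06 and Chaf1a, a histone chaperone subunit, by 1.38 on the log2 scale. Of 28 germline and meiosis genes 12 did not pass the filter. Of the 16 tested 5 were called higher (31.2%, against 17.6% of all genes tested) and 1 lower. A gene silent in WT can pass the filter through libraries labelled KO, so these shares cannot be compared fairly. With no filter 4 of 27 were called higher, against 2642 of 32063 genes. Tdrd9, a helicase of the germline that represses transposons, had no read in WT and was 70.0, 32.6 and 21.2 in libraries labelled KO, at least 11.7-fold higher. Spo11, which cuts DNA in meiosis, went from 11.8 and 6.97 to 162, 95.2 and 106 (log2 3.55 ± 0.74, limma, adjusted p = 8.84e-04). Of 16 neural and muscle genes tested, from 22 listed, 4 were called higher (25%, against 17.6% of all genes tested) and none lower. The same limit of the filter holds here. With no filter 4 of 22 were called higher, again against 2642 of 32063 genes. The widest was Tubb3, a neuronal tubulin, at 18.9 and 2.32 in WT and 167, 130 and 232 in libraries labelled KO (log2 4.41 ± 0.81, limma, adjusted p = 2.98e-04). Without WT replicate 2 the germline count was 3 and the neural and muscle count 2, the latter also without KO replicate 2 or KO replicate 3.

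To see which of these differences were already present before the move, the effect of genotype in Th2-Th1 cells was compared with that in Th2 cells on day 6 (3 libraries per genotype) by an interaction term over all genes. The effects differed for 6126 genes, with 17.3% of the genes tested more positive in Th2-Th1 cells and 18.2% more negative. In Th2 cells 5063 of the 17254 genes tested were called higher (29.3%) and 4261 lower (24.7%). Of the 3029 genes called higher in Th2-Th1 cells 1629 (53.8%) were also called higher in Th2 cells, where they made up 32.2% of the higher calls, and 470 (15.5%) were called lower there. Of the 2781 genes called lower 1478 (53.1%) were called lower in Th2 cells too, 34.7% of the lower calls there, and 438 (15.7%) were called higher. The effect also differed from that in naive cells (4 WT and 3 KO libraries) for 3750 genes (21.7%).

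Irf8 had the clearest change of sign. In Th2 cells it was 1901, 1638 and 1784 in WT and 166, 124 and 102 in libraries labelled KO, a log2 difference of -3.78, against 4.22 after the move (interaction 8.0 ± 0.35, limma, adjusted p = 9.15e-12). The WT level in Th2 cells was thus close to the KO level in Th2-Th1 cells, and the reverse also held. Il12rb2 was 341, 249 and 404 in Th2 WT and 81.5, 90.9 and 106 in Th2 libraries labelled KO, so that KO lay below WT before the move and above it afterwards (interaction 5.6 ± 0.64, limma, adjusted p = 1.51e-06). Mt2, a metallothionein gene, had a log2 difference of -4.86 in Th2 and 3.05 in Th2-Th1 cells, and Tbkbp1, a gene for a partner of the kinase TBK1, had -2.67 and 5.90. Gbp2 and Gbp5, which fell in Th2 cells (log2 -0.91 and -0.93), belonged to the same pattern.

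Ifng was already higher before the move, at 4.03, 7.42 and 9.98 in Th2 WT and 114, 74.3 and 59.5 in Th2 libraries labelled KO, and its difference was wider in Th2-Th1 cells (interaction 4.26 ± 1.03, limma, adjusted p = 0.0030). Tbx21 was 2.02, 0 and 0 in Th2 WT and 17.9, 13.4 and 8.49 in Th2 libraries labelled KO. Its log2 difference of 3.25 there and of 3.70 in Th2-Th1 cells did not differ by the test (interaction 0.45 ± 1.10, limma, adjusted p = 0.809), but with a pseudocount of 10, which damps the low Th2 values, the interaction was 2.52 and was called (adjusted p = 6.06e-05). Gata3 showed no called difference in Th2 cells (log2 0.04, adjusted p = 0.901), and the interaction was called (-1.32 ± 0.30, limma, adjusted p = 0.00206). Il4 was 2176, 1759 and 1936 in Th2 WT and 621, 663 and 567 in Th2 libraries labelled KO. The gap between genotypes was wider after the move (interaction -1.94 ± 0.40, limma, adjusted p = 8.75e-04). In both genotypes Il4 was higher in Th2-Th1 than in Th2 cells, by less on the log2 scale in libraries labelled KO. For Il13 and Il5 the interaction was not called (limma, adjusted p = 0.0645 and 0.351), though edgeR called it for Il13 (adjusted p = 0.0119).

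The same interaction, tested per gene, was counted within lists and is read against the 17.3% and 18.2% of all genes tested. In the interferon-gamma-induced list 13 of 21 genes had a more positive effect in Th2-Th1 cells and 1 a more negative one. In the type I list, with 29 of 33 called higher in Th2 cells, 3 were more positive and 15 more negative. Glycolysis genes had 16 of 17 more positive and none more negative, and cell cycle genes had 0 of 30 more positive and 18 more negative. In Th2 cells all 17 glycolysis genes were called lower (median log2 difference -1.74) and 21 of the 30 cell cycle genes higher (1.17). Their medians in Th2-Th1 cells were 0.36 and -0.04, so the larger differences between genotypes were those before the move. The Th2 libraries labelled KO held 36.3 to 44.7 M reads and the Th2 WT libraries 10.1 to 13.3 M, so depth differed with genotype in both states.

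**Figure D5:**
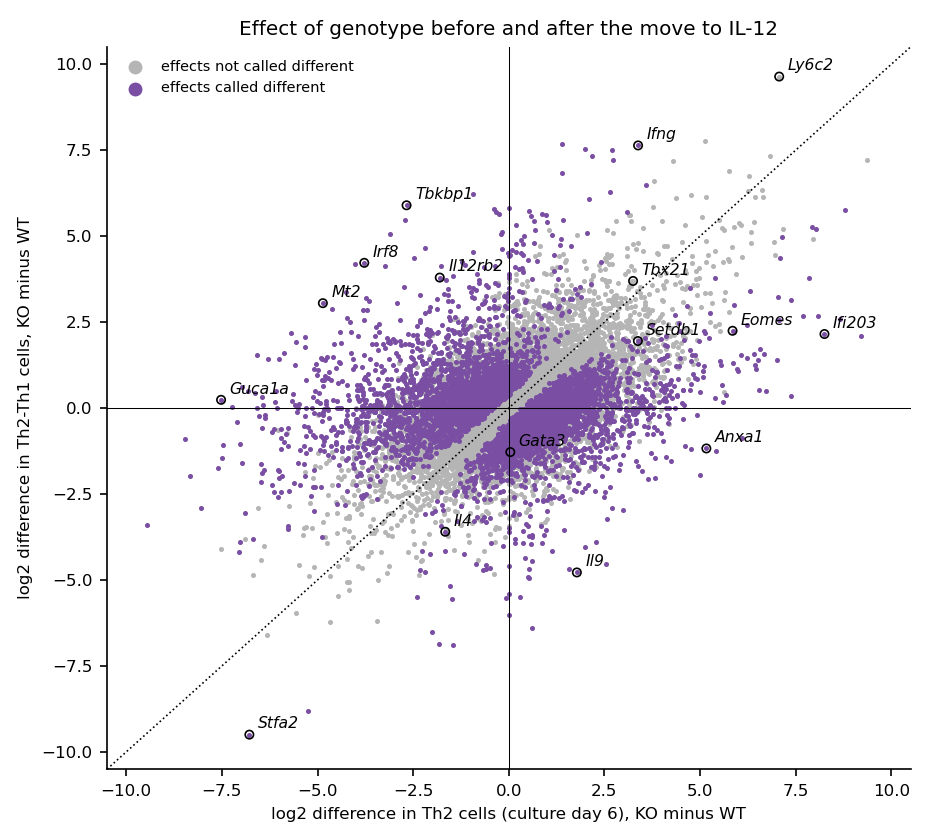
Log2 difference, Setdb1 KO minus WT, in Th2 cells on culture day 6 (x axis) and in Th2-Th1 cells (y axis) for each tested gene, purple where the effects were called different (6126 genes). The dotted line marks equal effects. Irf8, Il12rb2, Mt2 and Tbkbp1 lie in the upper left, where the sign changed, while Ly6c2 lies high in both and Stfa2 low in both.

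Chromatin was profiled in Th2 cells, and no peak list of Th2-Th1 cells was used here, so the deposited lists describe the cells before the move. The authors' H3K9me3 lists held 12233 peaks (19.5 Mb) in WT and 1708 peaks (2.56 Mb) in Setdb1 KO, called once per genotype, so that numbers of peaks have no replicate error. Of the genes tested 16222 were found by gene symbol or synonym in the RefSeq annotation. A WT H3K9me3 peak lay in the gene or within 5 kb for 29.1% of 2918 genes called higher in Th2-Th1 cells, 20% of 2711 called lower and 22.9% of all. In the KO list the shares were 2.02%, 1.25% and 2.01%. Genes called higher were longer (median 25.9 kb) than genes called lower (14.7 kb), and the part of gene length in the gap was not tested. Active chromatin marked by H3K27ac in WT was near 89.1% of the genes called higher and 87.5% of those called lower, against 81.3% of all. Among genes called with a change of 2-fold or more the shares lay below that of all genes, at 77.2% and 77.9%.

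Among the lineage genes Stat4 had 5 H3K9me3 peaks in WT and none in KO, with H3K27ac peaks going from 3 to 9. The whole H3K27ac list held more but narrower peaks in KO (40802, median 613 bp) than in WT (31251, median 1141 bp). More peaks at a gene thus need not mean more marked chromatin. Il12rb1 had 1 H3K9me3 peak in WT and none in KO. Ifng, Tbx21, Il12rb2 and Irf8, whose promoters are printed above, had no H3K9me3 peak in the gene or within 5 kb in either list. Within 20 kb Ifng had 3 such peaks, Tbx21 1 and Irf8 1 in WT, with none in KO. Tox (4 peaks), Pparg (7), Slamf6 (4), Tdrd9 (1), Tubb3 (1) and Dmc1 (2) had H3K9me3 peaks that were in the WT list and not in the KO list. Their RNA went both ways, since Pparg and Slamf6 were lower and the other 4 higher in libraries labelled KO. The call of Pparg (log2 -2.31, limma, adjusted p = 0.0268) was lost without WT replicate 1 (adjusted p = 0.0865), WT replicate 2 (0.149), KO replicate 2 (0.0508) or KO replicate 3 (0.0821). Dmc1 was called at 4.0 (adjusted p = 0.0123), a call lost without WT replicate 1 (0.0623) or 2 (0.0692).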

How the data were processed

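RNA of the 5 Th2-Th1 libraries was measured by sequencing of total RNA, and per the labels' protocols the libraries were made with a TruSeq kit. Per the submitters' processing notes, reads were trimmed with cutadapt (1.3), aligned to mm10 with TopHat2 (2.0.5) and normalised with DESeq. BWA (0.7.10) and MACS2 (2.1.0) are also named there. For strand setting and annotation the sources used here give nothing. The authors deposited gene values as a normalised signal, read counts divided by a size factor per library, in a table of 39179 genes that holds 2 identical copies, of which the first was used. Dividing each library by its smallest step gave whole reads for 100% of values within 0.01. Those reads ran from 18.9 M to 37.6 M per Th2-Th1 library, and 3 reads were taken as the floor.

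A gene was tested where 2 or more of the 18 libraries reached a value of 10 (17254 genes). Linear models on log2(value + 1) were fitted over all 18 libraries with limma (3.58.1, R 4.3.3), with 1 mean per group and 12 residual degrees of freedom. The Benjamini-Hochberg adjustment ran over all genes tested and the threshold was 0.05. Alternatives were edgeR's quasi-likelihood test (4.0.16) and DESeq2 (1.42.0) on the recovered reads, other pseudocounts, filters and scalings, fewer libraries, a replicate block and leaving out each library. The fit was tested on simulated data.

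Genes were named by rule: the lineage genes, the 15 largest called rises and falls with a mean of at least 50, no overlap between groups and no predicted-gene name, the 4 largest calls of each list, the 8 largest called interactions in each direction and the 10 most abundant genes of either group. Further examples were chosen after their values were seen, and members and lists were chosen with earlier results of these data known. No test was run over a list.

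Peak lists of Th2 cells hold the authors' score per peak, deposited as 1 list per genotype. A gene had a peak where 1 lay in it or within 5 kb. Promoter windows were searched for fixed motifs with Python (3.11.15). Exact intervals of read ratios and shares are at 95%.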

Additional observations from a re-analysis of the deposited data

Results flagged for a closer look

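The genes below are listed because the effect of genotype in Th2-Th1 cells differed from the effect in another state by a called interaction (limma, adjusted over all genes tested). Values are the effect in Th2-Th1 cells minus the effect in the other state, on the log2 scale.

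Against Th2 cells, the lineage genes with a more positive effect were Il12rb2 (5.6), Ifng (4.26) and Il12rb1 (1.01), and those with a more negative effect were Il9 (-6.56), Eomes (-3.60), Il4 (-1.94), Setdb1 (-1.43), Gata3 (-1.32) and Stat4 (-0.63). The call of Stat4 was lost without WT replicate 1 (adjusted p = 0.228), that of Eomes also without WT replicate 1 (0.0515), and that of Il12rb1 without KO replicate 1 (0.0706), WT replicate 1 (0.0565) or WT replicate 2 (0.0867). Setdb1 was higher in libraries labelled KO in both states, so its value is a smaller rise in Th2-Th1 cells.

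The largest positive differences from Th2 cells were those of Tbkbp1 (8.57), Smtnl2 (8.13), Irf8 (8.0), Mt2 (7.91), Rab34 (7.86), Guca1a (7.76), Tgfb3 (7.71) and Mpzl2 (7.63). For Smtnl2, Rab34, Guca1a and Tgfb3 the difference came with a strongly negative effect in Th2 cells (-6.58, -5.69, -7.52 and -6.29) and no called effect in Th2-Th1 cells. Rab34 depended on the setting. In Th2-Th1 cells limma called it higher with a pseudocount of 10 (1.42, adjusted p = 0.00292), a filter at 50 (2.17, 0.0459) and TMM scaling (2.25, 0.0461). The 5 libraries alone (2.17, 0.0234) and the Th2 and Th2-Th1 libraries alone (2.17, 0.0135) gave the call too. The largest negative differences were those of Sult5a1 (-7.11), Cacna2d1 (-7.04), Anxa1 (-6.34), Cpa3 (-6.23), Ifi203 (-6.10), Map2 (-6.08) and Drc1 (-5.61), whose effects in Th2 cells ran from 5.16 to 9.20. edgeR did not call the difference for Sult5a1 (adjusted p = 1.00) or Cpa3 (0.130).

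Against naive cells, lineage genes with a more positive effect were Ifng (6.12), Tbx21 (4.97), Eomes (4.88), Il12rb2 (3.26), Setdb1 (2.33) and Stat4 (1.01). Those with a more negative effect were Il4 (-4.02), Il13 (-3.49), Gata3 (-2.08), Il5 (-2.07), Maf (-1.29) and Cd4 (-1.0). edgeR did not call the difference for Ifng (adjusted p = 0.480), Il13 (0.449) or Il4 (0.0732), and that of Maf was lost without WT replicate 2 (0.0651). The call of Il5 was lost without KO replicate 3 (0.139), WT replicate 1 (0.108) or WT replicate 2 (0.149), with a pseudocount of 0.5 (0.159), no filter (0.0965), TMM scaling (0.0519), DESeq2 (0.727) and the replicate block (0.154), and edgeR gave a difference of 0.43 (0.850).

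The largest positive differences from naive cells were those of Klrk1 (8.92), Ly6c2 (8.07), Klrd1 (7.90), Ly6c1 (7.43), Tnfrsf19 (7.02), Fgl1 (6.95), Mylk (6.80) and Tbkbp1 (6.69). The largest negative ones were those of Stfa2 (-9.50), Akr1c18 (-8.63), Snord87 (-6.94), Grp (-6.53), Pth (-6.27), Tgm2 (-6.18), Stfa3 (-6.12) and Hist1h2af (-5.74). edgeR did not call the difference for Stfa2 (adjusted p = 1.00), Stfa3 (0.956) or Pth (0.0537). Stfa2 had no read in any naive library.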

How the results depend on the processing

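The count of 5810 genes called in Th2-Th1 cells lay between 4988 and 7020 under other pseudocounts, filters, scalings, tools, sets of libraries and the replicate block, and between 3836 and 5169 with 1 library left out, the lowest without WT replicate 2. None of the 5810 genes changed sign in any of these. The interaction with Th2 cells gave 5413 to 7369 genes (4970 to 5756 with 1 library left out), and that with naive cells 3063 to 4390 (2494 to 3343 with 1 library left out), the lowest again without WT replicate 2. TMM scaling raised the share of higher among called genes from 52.1% to 59%.

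Of 198 named genes 170 were called and 127 of those were called in every alternative run, while 43 lost the call in at least 1. The interaction of Il5 with naive cells (-2.07, limma, adjusted p = 0.0475) was 0.43 by edgeR (adjusted p = 0.850), and the cause was not tested.

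With replicate number as a block, 4988 genes were called in Th2-Th1 cells. Deviations of same-numbered libraries correlated at 0.02 and 0.03 across genes, with 2 shared numbers, so the numbers did not establish a pairing.

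With 2 WT libraries, a fit without either leaves 1, which is assumed to vary like the other groups. At 3 reads a gene stood at 3.51 in WT and 1.48 in libraries labelled KO, so low genes were less detectable in WT.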

Other observations

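Small nucleolar RNAs, which guide the modification of ribosomal RNA, formed a group of lower genes that was noticed after the values were seen. By RefSeq gene type 137 were tested, of which 49 were called lower (35.8%) and 9 higher (6.57%), with a median log2 difference of -0.98, against 16.5% lower and 19.8% higher among 13614 protein-coding genes. Gm22422 was 26291 and 27988 in WT and 49.9, 46.6 and 87.7 in libraries labelled KO (log2 -8.82 ± 0.69, limma, adjusted p = 1.79e-08), and Gm23245 was 13737 and 14873 in WT and 100.3, 261.5 and 269 in libraries labelled KO (-6.21 ± 0.51). The group was not uniform, since Snord45b had no read in WT and 16.7 ± 7.92 (SD, n = 3) in libraries labelled KO. It was not particular to Th2-Th1 cells: in Th2 cells before the move 49 of the 137 were called lower and 14 higher, with a median log2 difference of -0.952.

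Pseudogenes showed a smaller shift of the same direction, with 310 of 1178 called lower (26.3%) and 78 higher. Rps23-ps, which shares sequence with the ribosomal protein gene Rps23, was 51167 and 60806 in WT and 17929, 25808 and 28018 in libraries labelled KO (log2 -1.25), and Rps23 itself fell by 1.56 on the log2 scale. Reads of such pairs cannot be assigned to 1 of them with certainty. The shift of pseudogenes was larger in Th2 cells before the move, where 597 of the 1178 were called lower and 92 higher.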
